A study of Homo sapiens with 16 samples.

Results

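The 7 genes described here, YPEL1, METTL13, IRS4, COQ8A, ANKS3, DNAAF8 and FLYWCH2, were chosen by the peak lists themselves: each had a BMAL1 peak at a gene end at 3 or more additional time points in U2OS than in U2OS-CHRONO. They are 7 of the 30 genes that met this condition, which are 0.150% of the 20033 protein-coding genes placed on the chromosomes. A gene end means either boundary of the gene in the RefSeq table of GRCh38.p14, the assembly also known as hg38, with 1 kb to each side. ANKS3 and DNAAF8 lie side by side and share their peaks, so the 7 genes carry 6 sites. Since the genes were selected on the number of times with a peak in each line, that number is given as a description, with no test.

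The libraries came from chromatin immunoprecipitation and sequencing in cultured human osteosarcoma cells. The group set against its parent was U2OS-CHRONO, labelled U2OS_CHR, with 6 BMAL1 libraries labelled 0, 4, 8, 12, 16 and 20 h and 1 library precipitated with a Myc antibody, whose target the series design names as Myc-CHRONO and which has no time or treatment label. The parental group was U2OS, labelled U2OS_WT, with 6 BMAL1 libraries at the same times. Cells of both time courses were treated with 200 nM dexamethasone, a glucocorticoid used to bring the clocks of cultured cells into step, and sampling every 4 h began 4 h ahead of the trough of a luciferase reporter driven by the BMAL1 promoter. How the U2OS-CHRONO line was made, and whether it is 1 clone, is not given in the sources used here. There was 1 library per line and time, so nothing below has a replicate at a single time point, and a peak list cannot check the identity of the cells. Of the 16 samples, 3 were inputs and were not analysed here.

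BMAL1 is a transcription factor that pairs with CLOCK and binds the E-box CACGTG, a short DNA element near clock-controlled genes. CHRONO, encoded by CIART, is known as a repressor of this pair. None of the 7 genes belongs to the core clock. METTL13 methylates the translation elongation factor eEF1A, IRS4 is an adaptor that carries signals from insulin and IGF receptors, and COQ8A is an atypical kinase needed for coenzyme Q synthesis in mitochondria. ANKS3 is an ankyrin-repeat protein found at cilia, DNAAF8 is a cytoplasmic factor of axonemal dynein assembly, and YPEL1 belongs to the Yippee-like family of putative zinc-binding proteins. FLYWCH2 is named after the FLYWCH zinc finger.

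At 3 genes the U2OS peaks lay over the RefSeq promoter window, which runs from 250 bases before a transcription start to 50 after it, and the sequences of those windows show which letters the peaks covered. RefSeq windows (GRCh38.p14) were matched for 6 of the 7 genes: METTL13, IRS4, COQ8A, ANKS3, DNAAF8 and FLYWCH2. In the lines below, 5′ to 3′ on the strand of the gene, capitals mark CACGTG and CCAAT, the letters bound by NF-Y, on either strand. METTL13 is from chr1:171781410-171781709 (plus strand), IRS4 from chrX:108736328-108736627 (minus strand), COQ8A from chr1:226940044-226940343 (plus strand).
METTL13: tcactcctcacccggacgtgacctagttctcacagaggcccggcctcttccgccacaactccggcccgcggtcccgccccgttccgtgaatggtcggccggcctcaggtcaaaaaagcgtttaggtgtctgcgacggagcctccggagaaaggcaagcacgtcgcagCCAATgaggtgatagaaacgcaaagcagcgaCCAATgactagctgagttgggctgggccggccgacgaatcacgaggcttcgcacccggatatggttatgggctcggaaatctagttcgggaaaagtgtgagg
IRS4: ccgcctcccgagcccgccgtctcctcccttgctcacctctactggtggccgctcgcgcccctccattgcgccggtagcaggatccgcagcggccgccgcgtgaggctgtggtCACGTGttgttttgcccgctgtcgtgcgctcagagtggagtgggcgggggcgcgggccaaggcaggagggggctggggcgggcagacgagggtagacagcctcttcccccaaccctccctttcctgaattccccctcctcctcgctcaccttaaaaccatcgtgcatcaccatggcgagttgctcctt
COQ8A: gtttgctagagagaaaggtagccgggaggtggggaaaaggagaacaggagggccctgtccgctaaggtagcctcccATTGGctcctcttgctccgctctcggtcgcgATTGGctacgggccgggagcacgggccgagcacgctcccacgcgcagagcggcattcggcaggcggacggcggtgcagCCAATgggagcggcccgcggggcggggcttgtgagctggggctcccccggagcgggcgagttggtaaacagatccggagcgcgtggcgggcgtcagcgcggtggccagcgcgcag

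The IRS4 window held 1 CACGTG, at 108736510 to 108736515 on chromosome X, inside all 4 U2OS peaks of the gene. This window belongs to the inner of 2 annotated starts, and the E-box lies at -138 from it, within the gene. It was the 1 CACGTG among the 8 windows of the 6 matched genes. Of all 35116 promoter windows in the RefSeq table, 7.26% held a CACGTG. The share was 32.1% of the 2140 windows with a U2OS BMAL1 peak at some time, and 36 of the 72 windows with a BMAL1 peak in all 12 libraries held one. CACGTT, a related letter string searched on both strands, was in none of the 8 windows and in 5.34% of all windows.

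METTL13 and COQ8A had no CACGTG in their windows, and their peaks covered CCAAT. METTL13 had 2 copies, both inside its 4 U2OS peaks. COQ8A had 3 copies, all inside its 3 U2OS peaks. The windows of ANKS3 and DNAAF8 overlap and hold the same 2 copies, which no U2OS peak covered. FLYWCH2 had 1 copy, which 1 U2OS peak covered, the smaller one of 20 h. CCAAT on either strand was in 34.6% of all windows and in 44.0% of those with a U2OS BMAL1 peak. At ANKS3, DNAAF8 and FLYWCH2 the bases shared by all U2OS peaks lay outside the windows, so their sequences are not shown. A match of letters is a description of the window and not a binding site.

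The first question was where the peaks of the 7 genes lay in each line and how high they ranked. In the gene bodies and 5 kb to each side, U2OS-CHRONO had 2 peaks in its 6 BMAL1 lists, against 24 in the 6 U2OS lists, with shared peaks counted once. Of these, 1 and 23 lay at gene ends. A peak is placed below by its score percentile, its standing by column 5 of its own list, where 100 is the highest score. The column is the authors' own value, its definition is not given in the sources used here, and no list holds a score under 50, so weaker signal is not listed.

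YPEL1 spans 21697536 to 21735794 on chromosome 22. No U2OS-CHRONO library had a BMAL1 peak at its ends, against U2OS peaks at 4 of 6 times, with score percentiles of 42.4 at 0 h, 81.1 at 4 h, 72.0 at 12 h and 61.1 at 20 h. All 4 U2OS peaks covered 21735822 to 21736124, just beyond the upper boundary of the gene. Away from that site there was 1 U2OS-CHRONO peak inside the gene, at 21714819 to 21715076 at 8 h with a percentile of 20.2. A further U2OS peak lay beyond the gene but within 5 kb, at 21738878 to 21739167 at 20 h with a percentile of 13.6. The 2 lines thus had no peak in the same place at YPEL1.

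METTL13 spans 171781660 to 171797716 on chromosome 1. It had no U2OS-CHRONO peak in the gene or within 5 kb, against U2OS peaks at 4 times, with percentiles of 54.0 at 0 h, 37.5 at 4 h, 43.7 at 12 h and 18.9 at 20 h. Relative to the gene's start their centres lay at -28 to -146, and all 4 shared 171781525 to 171781674. Scores ran from 54.97 to 75.81, close to the lowest value in the lists.

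IRS4 spans 108719946 to 108736563 on chromosome X. It too had no U2OS-CHRONO peak, against U2OS peaks with percentiles of 27.9 at 4 h, 32.6 at 12 h, 58.0 at 16 h and 22.7 at 20 h. The 4 peaks shared 108736432 to 108736590, across the upper boundary of the gene, where the RefSeq table also places the antisense gene IRS4-AS1. A peak here cannot be assigned to one of the 2 genes. With scores from 55.49 to 73.54, IRS4 and METTL13 had the lowest-ranked sites of the 6, with median percentiles of 30.2 at IRS4 and 40.6 at METTL13, and 66.6 or more at the other sites.

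COQ8A spans 226940294 to 226987544 on chromosome 1. U2OS-CHRONO had no peak there, while U2OS had percentiles of 81.7 at 0 h, 82.5 at 4 h and 61.4 at 20 h. The shared bases, 226940051 to 226940289, end just before the gene's start. Scores reached 149.15 at 4 h, rank 924 of 5287 peaks.

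ANKS3 (4696511 to 4734271) and DNAAF8 (4734537 to 4749396) stand close together on chromosome 16. They are read in opposite directions from starts that adjoin each other across a short gap. No U2OS-CHRONO list had a peak in either gene or within 5 kb. U2OS percentiles were 68.9 at 4 h, 79.6 at 16 h and 73.1 at 20 h. The shared bases, 4734706 to 4735011, lie inside DNAAF8, so of the pair it is DNAAF8 that the peaks overlap. These 3 peaks all had scores above 100, from 102.47 to 116.77.

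FLYWCH2 spans 2883195 to 2899382 on chromosome 16 and was the 1 gene of the 7 with a gene-end peak in U2OS-CHRONO. That peak, at 16 h, had a score percentile of 54.1 (rank 4311 of 9391), and U2OS at the same time had 80.0 (rank 561 of 2794). The other U2OS percentiles were 79.5 at 4 h, 56.9 at 12 h and 86.6 at 20 h, the highest of all 23 gene-end peaks. At 20 h a second, smaller U2OS peak with a percentile of 21.6 filled the space up to the gene's start. The 4 main U2OS peaks shared 2882603 to 2882810, before the gene, and the U2OS-CHRONO peak covered these bases too.

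**Figure D1:**
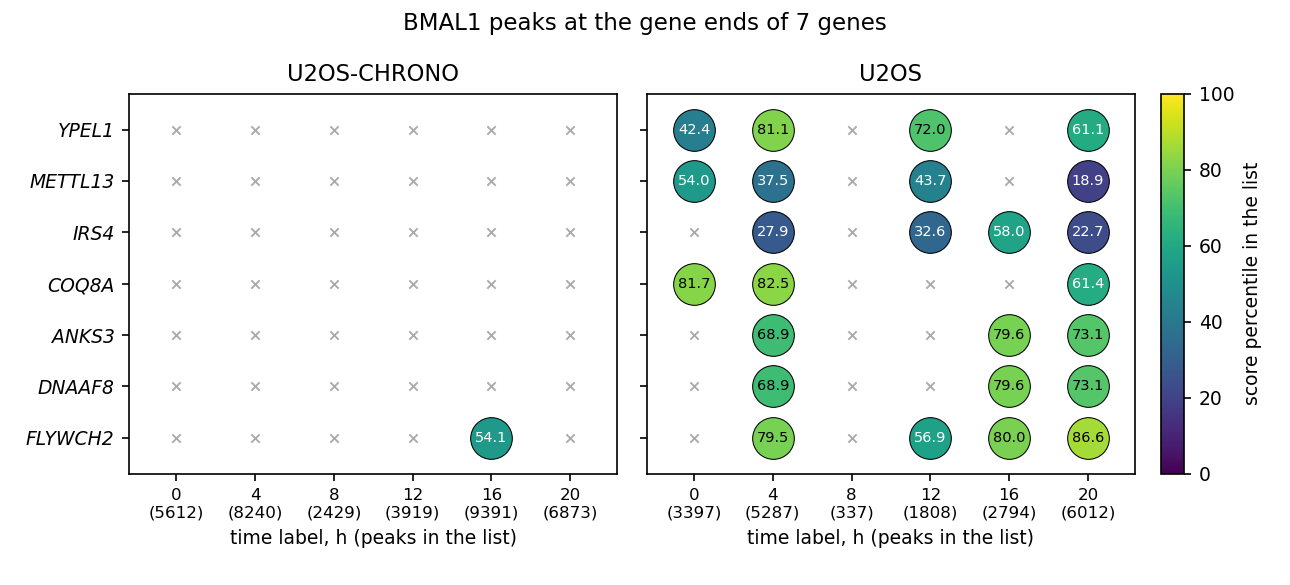
Score percentile of the highest gene-end BMAL1 peak of each gene (rows) in each library (columns, with the time label in h and the list length in brackets), U2OS-CHRONO on the left and U2OS on the right; a cross marks a library with no gene-end peak. U2OS-CHRONO holds 1 value, 54.1 at FLYWCH2 at 16 h, and U2OS holds values at every time but 8 h.

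**Figure D2:**
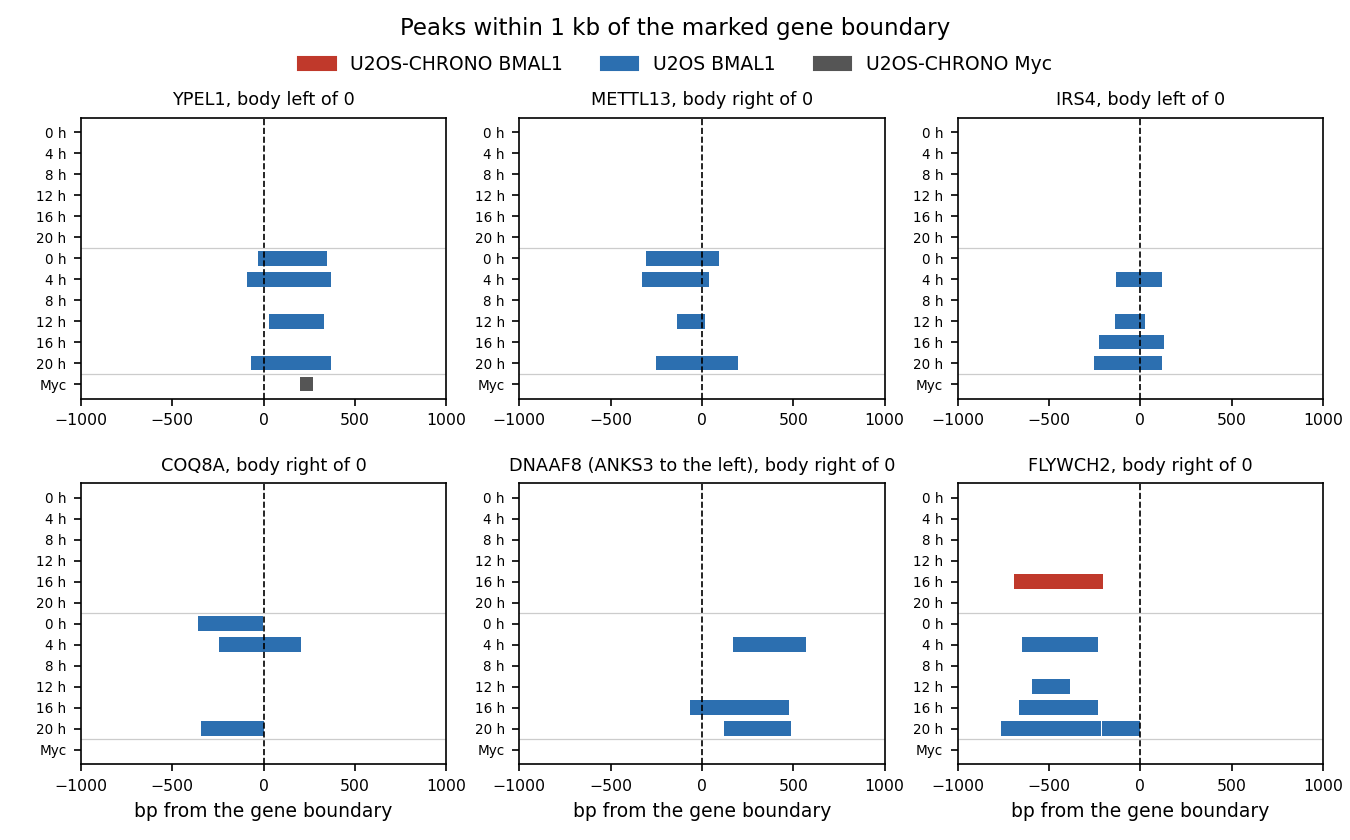
Peaks within 1 kb of the marked gene boundary at the 6 sites, with position in bp from the boundary on the x axis (rising chromosome position to the right) and libraries down the y axis, U2OS-CHRONO BMAL1 above U2OS BMAL1 and the Myc library at the bottom. The U2OS peaks of a gene stack over the same bases, and the Myc peak at YPEL1 lies inside its 4 U2OS peaks.

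Among the times, U2OS had peaks at all 7 genes at 4 and 20 h, at 3 genes at 0 h, at 4 genes at 12 and 16 h, and at none at 8 h. U2OS-CHRONO had 1 gene at 16 h and none at the other times. Over all genes, the share with a gene-end peak at 0, 4, 8, 12, 16 and 20 h was 9.26, 11.3, 2.76, 4.25, 12.2 and 8.65% in U2OS-CHRONO, against 5.01, 6.80, 0.484, 2.16, 3.84 and 6.45% in U2OS. The U2OS numbers went in part with list length: 4 and 20 h had the 2 longest lists, with 5287 and 6012 peaks, and 8 h the shortest, with 337. The U2OS-CHRONO list was longer at every time, with 8240 peaks at 4 h, 6873 at 20 h and 2429 at 8 h. Depth and enrichment are not known for any library, and their part in the presence or absence of a peak was not tested.

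Over all genes, peaks moved mostly the other way. At 3 or more additional times, 3.70% of the 20033 genes (742) had a gene-end peak in U2OS-CHRONO, and 0.150% (30) had one in U2OS. With both lists of a time at equal length, these counts became 232 in U2OS-CHRONO and 77 in U2OS. The second share is the rule that chose the 7 genes, so nothing is read from it. Inside the threshold, 5 genes had 4 additional U2OS times and 25 had 3. Just outside it, 87 genes had 2 additional U2OS times, with a median of 0 U2OS-CHRONO and 2 U2OS times. The mean score percentile of their peaks was 38.8 at the median gene (range 6.87 to 85.5), and it was 55.7 (28.2 to 79.8) among the 25 genes just inside. Among the 5 genes with 4 additional U2OS times the median was 46.9 (35.3 to 64.1). The other 2 genes with 4 additional U2OS times were SLC2A8, a sugar transporter, with no U2OS-CHRONO peak and U2OS percentiles from 32.7 to 83.5, and ESR2, an oestrogen receptor, with none and from 2.08 to 73.1.

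The second question was how unusual an unmatched peak is at these ranks. The U2OS peaks of each list were sorted by score into 4 classes of equal size. In the lowest class 26.4% ± 6.36 of them shared at least 1 bp with a peak of the U2OS-CHRONO list of that time (mean ± SD, n = 6 times). The share was 39.9% ± 10.1 in the second class, 64.9% ± 9.82 in the third and 91.0% ± 4.73 in the highest. Of the 23 gene-end peaks of the 7 genes, 3 fell in the lowest class, 5 in the second, 8 in the third and 7 in the highest, and 1 of the 23, at FLYWCH2 at 16 h, had such a partner. METTL13 and IRS4 stood mostly in the 2 lower classes, where most U2OS peaks lacked a partner too. At COQ8A (0 and 4 h), ANKS3 and DNAAF8 (16 h), YPEL1 (4 h) and FLYWCH2 (4 and 20 h) the unmatched peak stood in the class where 91.0% of peaks were matched on average. These peaks had percentiles from 79.5 to 86.6, in the lower part of that class. The share of the class ran from 82.6% at 20 h to 96.6% at 16 h, and the share at the ranks of these peaks was not computed. Lack of a partner is what the genes were picked for, so the counts describe them and test nothing. For scale, the gene-end peaks of 8 clock genes found in all 12 libraries (NR1D1, NR1D2, DBP, BHLHE40, CRY1, CRY2, PER3 and PER1) had U2OS percentiles of 84.3 or more. Of the 23 peaks, 1, at FLYWCH2, ranked that high.

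**Figure D3:**
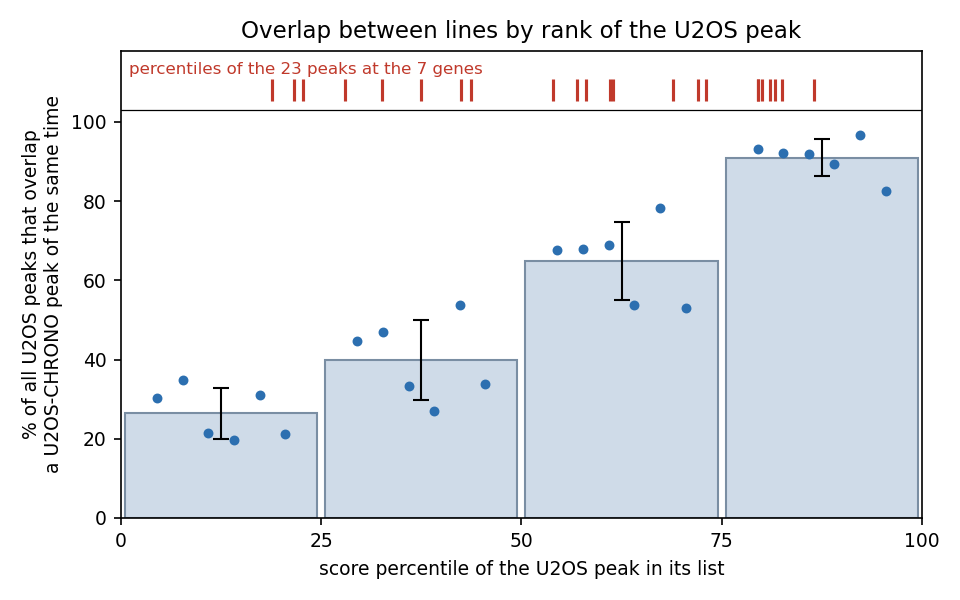
Share of U2OS peaks with a partner in the U2OS-CHRONO list of their time (y axis, %), by class of U2OS score percentile (x axis); bars are means and error bars SD over 6 times, dots are single times in order from 0 to 20 h. Red ticks above mark the percentiles of the 23 gene-end peaks at the 7 genes, which spread from 18.9 to 86.6.

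The third question was whether Myc-CHRONO was found at these sites. The Myc library had a peak at 1 of the 7 genes, YPEL1, at 21735993 to 21736066, a width of 74 bp. It lay inside the bases shared by the 4 U2OS BMAL1 peaks. Its score percentile was 51.7, rank 1201 of 2487 peaks. The same line had no BMAL1 peak there at any time, and its nearest BMAL1 peak was 20.9 kb away. The Myc library marked the ends of 5.36% of all genes, and of 13.6% of the 748 genes with a gene-end BMAL1 peak in 3 or 4 of the 12 BMAL1 libraries. In the gene or within 5 kb the share of all genes was 9.79%, and of the 7 again 1 gene, YPEL1. With 1 library and 1 gene no difference from these shares can be shown. The YPEL1 Myc peak had a score of 59.26 and was not among the Myc peaks with a score of 100 or more.

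The fourth question was whether the neighbourhoods of the 6 sites also had fewer peaks, which the choice of genes did not use. Within 1 Mb of each gene, leaving out the gene and 5 kb to each side, peaks were counted per 1000 peaks of the list and the lines compared by a two-sided exact paired permutation test that flips the sign of each of 6 time differences. The p-values were adjusted over 6 loci by the Benjamini-Hochberg method. No locus passed. The smallest p that 6 pairs allow is 0.031 (exact permutation), and a single locus at that p would have an adjusted p of 0.188, so this design could not call 1 locus alone.

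FLYWCH2 had the smallest p. Its surroundings held 1.78, 1.58, 2.47, 2.04, 2.13 and 2.18 peaks per 1000 in U2OS-CHRONO at 0, 4, 8, 12, 16 and 20 h, against 3.53, 2.27, 5.93, 2.77, 3.94 and 1.66 in U2OS. U2OS-CHRONO was lower at 5 of 6 times, and the ranges overlapped. The means were 2.03 ± 0.314 in U2OS-CHRONO and 3.35 ± 1.51 in U2OS (SD, n = 6 times), a difference of -1.32 ± 1.35 (exact paired permutation p = 0.0625, adjusted p = 0.375). The U2OS value of 8 h came from 2 of 337 peaks, and without that time the difference was -0.891. As plain numbers the direction turned, with 72 peaks in the 6 U2OS-CHRONO lists and 52 in the U2OS lists.

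At ANKS3 and DNAAF8 the flanks held 1.48 ± 0.246 peaks per 1000 in U2OS-CHRONO and 3.14 ± 2.94 in U2OS, lower at 5 of 6 times (exact paired permutation p = 0.156, adjusted p = 0.469, n = 6 times). The U2OS mean rests on 8 h, where 3 of 337 peaks made 8.90 per 1000. Without that time the difference was -0.458 in place of -1.66. Here too the plain numbers ran the other way, with 55 peaks in U2OS-CHRONO and 44 in U2OS.

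The other 4 loci had larger p-values. YPEL1 had 0.897 ± 0.452 peaks per 1000 in U2OS-CHRONO and 1.27 ± 0.717 in U2OS (SD, n = 6 times), from 29 U2OS-CHRONO and 28 U2OS peaks. It was lower in U2OS-CHRONO at 5 of 6 times, and its difference was -0.369, or -0.690 without 8 h. METTL13 had 0.620 ± 0.313 in U2OS-CHRONO and 0.537 ± 0.456 in U2OS, from 25 U2OS-CHRONO and 12 U2OS peaks. COQ8A had 1.00 ± 0.260 in U2OS-CHRONO and 1.32 ± 0.824 in U2OS, from 37 U2OS-CHRONO and 19 U2OS peaks, and without 8 h its difference turned to 0.0498. IRS4 lay in a stretch with few listed BMAL1 peaks: 2 in all U2OS-CHRONO lists and 1 in all U2OS lists. The exact permutation test gave p = 0.344 (adjusted p = 0.688) for YPEL1 and an adjusted p of 0.781 for the other 3.

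**Figure D4:**
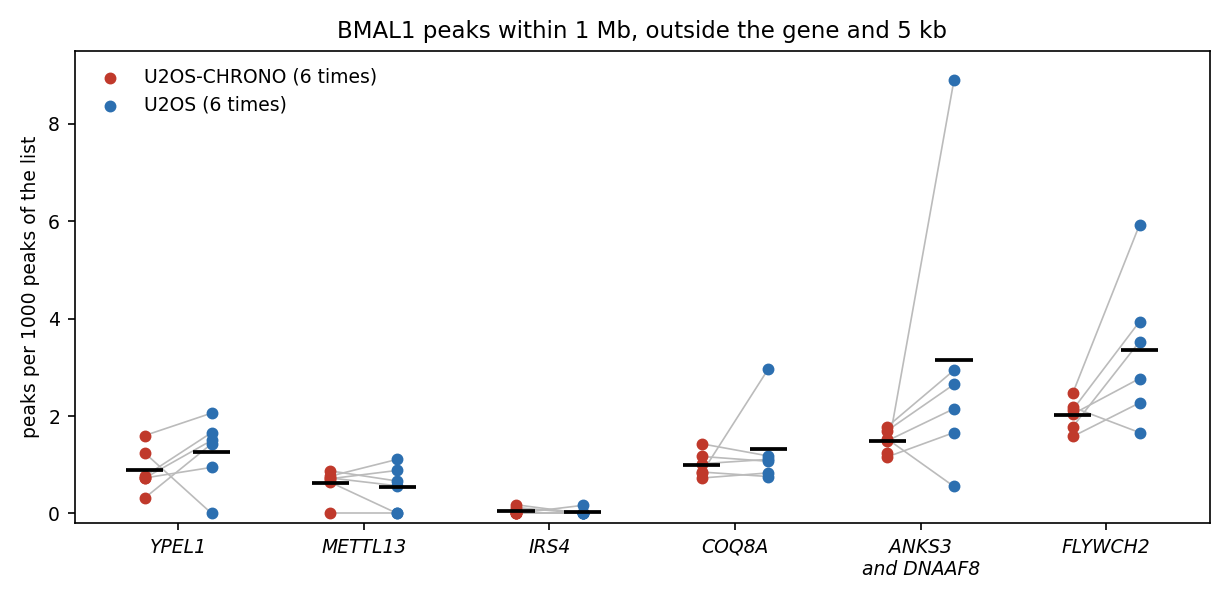
BMAL1 peaks within 1 Mb of each gene but outside the gene and 5 kb, per 1000 peaks of the list (y axis), at the 6 loci (x axis); each dot is 1 time, U2OS-CHRONO left of U2OS, grey lines join the same time and black bars are means. The 8.90 at ANKS3 and DNAAF8 is the U2OS list of 8 h, and the lines overlap at every locus.

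Some sites had close neighbours with a peak in U2OS-CHRONO. Within 100 kb of the 6 loci there were 16 further regions with a BMAL1 peak in some library, and 12 of them had one in U2OS-CHRONO and 9 in U2OS. IRS4 had no such region, and its nearest U2OS-CHRONO peak at any time was 749 kb away. METTL13 had 2, of which 1 had a peak at 1 U2OS-CHRONO time and the other at 1 U2OS time. At FLYWCH2 a region 46.8 kb away, at 2835676 to 2836409, had peaks at 6 U2OS-CHRONO and 5 U2OS times and a Myc peak. Near YPEL1 a region at the end of YDJC, 67.9 kb away, had peaks at 4 times in each line and a Myc peak. COQ8A had the opposite case beside it: 76.3 kb below the gene, 226863423 to 226863972 had a peak at 6 U2OS-CHRONO times, with percentiles from 45.6 to 94.4, and at 1 U2OS time, with 55.0.

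FLYWCH2 had a second site nearby with listed peaks in U2OS alone. Beyond its far end by 5.94 kb, the region 2905322 to 2905848 on chromosome 16 had no U2OS-CHRONO peak and U2OS peaks at 4 times, with percentiles of 13.7 at 0 h, 41.6 at 4 h, 73.1 at 16 h and 65.6 at 20 h. It lay just outside the 5 kb within which peaks were listed, and was picked out after its values were seen. None of the other 5 loci had a further region with 3 or more additional U2OS times within 100 kb. Whole chromosomes were not tested between the lines. Chromosome 16 took 37.7 ± 2.06 of every 1000 peaks in U2OS-CHRONO and 42.2 ± 2.12 in U2OS (SD, n = 6 times). Chromosome 22 took 28.7 ± 1.35 in U2OS-CHRONO and 37.0 ± 6.85 in U2OS. Chromosome 1 took 99.1 ± 4.47 in U2OS-CHRONO and 88.8 ± 9.11 in U2OS, and chromosome X 11.2 ± 2.04 in U2OS-CHRONO and 9.45 ± 2.30 in U2OS. The medians lay closer together on chromosomes 22 and 1, at 28.7 and 99.1 in U2OS-CHRONO and 34.5 and 92.4 in U2OS. Single U2OS lists reached 50.4 on chromosome 22 and fell to 71.2 on chromosome 1. These U2OS means include the list of 8 h, with 337 peaks. The number of chromosome copies in either line was not measured.

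The fifth question was whether relatives of the 7 genes behaved alike. Lists of family and pathway genes held 53 further genes, of which 19 had a gene-end BMAL1 peak in some library. More U2OS-CHRONO than U2OS times were found at 14 and the reverse at 3. Among all 20033 genes, 4175 had such a peak, 3019 with more U2OS-CHRONO times and 697 with more U2OS times. The median difference was 0 both in these lists and over all genes. Past the threshold of 3 times there were 2 relatives with more U2OS-CHRONO times and 1 with more U2OS times.

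That 1 relative was EEF1AKMT4, which like METTL13 encodes a methyltransferase of eEF1A. It shares its gene-end peak with ALG3, a mannosyltransferase of protein glycosylation. In U2OS-CHRONO it had a gene-end peak at 20 h alone, with a percentile of 80.9. U2OS had gene-end peaks at 0, 4, 12 and 20 h, the same 4 times as METTL13, with percentiles from 20.5 to 71.6. In the gene or within 5 kb, EEF1AKMT4 had peaks at 3 U2OS-CHRONO and 5 U2OS times, which is not past the threshold. EEF1AKMT3, another enzyme of this group, had peaks at 4 U2OS-CHRONO and 5 U2OS times. The substrate genes went the other way: EEF1A1 had peaks at 3 U2OS-CHRONO times and EEF1A2 at 2, and neither at a U2OS time. EEF1AKMT1 and EEF1AKMT2 had none.

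Of the other 4 Yippee-like genes, YPEL5 had peaks at 6 U2OS-CHRONO and 5 U2OS times, with percentiles up to 98.9 in both, and a Myc peak. YPEL2, YPEL3 and YPEL4 had no gene-end peak, though YPEL2 had peaks at 2 U2OS times in the gene or within 5 kb. Among 9 genes around the insulin receptor substrates, 4 had a gene-end peak: INSR, the insulin receptor, at 4 times in each line, IGF2R at 3 U2OS-CHRONO and 1 U2OS times, and SHC1 and IGF1R at U2OS-CHRONO times alone, 2 and 1. IRS1 and IRS2, the closest relatives of IRS4, had no gene-end peak, though IRS1 had peaks at 3 U2OS-CHRONO times in the gene or within 5 kb. Of 12 coenzyme Q genes, 6 had a gene-end peak. COQ10B had peaks at 6 U2OS-CHRONO and 4 U2OS times, COQ8B, the paralog of COQ8A, at 3 in each line, PDSS1, COQ4 and COQ6 at 1 U2OS-CHRONO time each, and COQ5 at 1 U2OS time.

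Among 12 genes of dynein arms and their assembly, 3 had a gene-end peak, all without one in U2OS. These were ODAD1, a docking complex gene, at 4 U2OS-CHRONO times with percentiles from 61.3 to 71.5, and DNAAF2 and DNAAF11 at 2 each. FLYWCH1 had none.

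Genes whose gene-end pattern over the 12 BMAL1 libraries was most like that of a member were ranked by the Jaccard index, the libraries with a peak in both genes as a share of those with a peak in either. COQ8A had 6 genes with an identical pattern (index of 1.00), the highest-ranked being MXD4, a MAX partner, SLIT1, an axon guidance ligand, and MDGA1. For ANKS3 and DNAAF8, 8 genes had an index of 0.75 or more. Of these PEX39, a peroxisome gene, was identical to the pair, and the rest tied at 0.75. Ties were ordered by mean score percentile, which put SLC2A8 and FBXO11 first among the tied genes. YPEL1 and METTL13 shared a pattern of times. Of 11 further genes at 0.75 or more, SF3B1, a splicing factor, ALG3 and EEF1AKMT4 came first at 0.800. For FLYWCH2 the nearest were VPS8 at 0.833 and FBXO11 and RPL7L1 at 0.800, and for IRS4 they were ETV1, an ETS transcription factor, and PEX39 at 0.75. RPL7L1 and PEX39 share the same U2OS peaks, so they are not separate sites. The U2OS-CHRONO peak of RPL7L1 lies elsewhere, at its other end. All patterns of the 7 genes share the long U2OS lists of 4 and 20 h, and they rest on 3 to 5 libraries with a peak per gene.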

How the data were processed

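The 13 deposited files are peak lists in BED form, 1 per library (6 BMAL1 libraries of U2OS-CHRONO, 6 of U2OS, 1 Myc library of U2OS-CHRONO). Column 5 of each is a score per peak, as deposited by the authors, which served only for ranks and filters inside its own list. Column 4 holds MACS peak names per the files, while the build hg38 and the tools HOMER 4.10.3, MACS 1.4.2 and bedtools are in the submitters' processing notes, with no roles. Aligner, calling control and depth: not given in the sources used here, so no interval or detection limit is given.

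Starts were converted to 1-based positions, and peaks touched a window when they shared 1 bp. Gene spans came from the RefSeq table of GRCh38.p14, in which all 7 genes were found; exons and introns were not used here. Hits at gene ends equalled those of bedtools 2.31.1 in 13 of 13 lists. Lines were paired by time label. Alternatives were a 5 kb window, the gene with 5 kb, peaks of score 100 or more, the longer list of each time shortened by score to the length of the other, peak centres, each time left out, and, for flanks, 500 kb, plain numbers and no pairing. Genes named beside the 7 are those sharing a peak, those with 4 additional U2OS times, the 3 most alike per gene, and relatives with a gene-end peak, of which 1 is counted but not reported here. Members, lists and tests were chosen with earlier results of these data known. Python 3.11.15, NumPy 2.4.6, pandas 2.3.3 and matplotlib 3.10.9 were used.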

Additional observations from a re-analysis of the deposited data

Results flagged for a closer look

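Of 14 sets of 6 libraries (peaks around each locus per 1000, and list length, in each line), 4 had 1 library far from the rest. The 1 in 20 that chance flags holds for continuous values and not for such small counts: with 5 libraries at 0, as around IRS4 in U2OS, any single peak stands apart. Around METTL13 the U2OS-CHRONO list of 8 h had 0 peaks. Around IRS4 the U2OS list of 20 h held the 1 peak of that line, 0.166 per 1000. Around COQ8A the U2OS list of 8 h had 2.97 per 1000, from 1 peak, and around ANKS3 and DNAAF8 it had 8.90 per 1000, from 3 peaks. The 8 h lists are the shortest of both lines, with 2429 peaks in U2OS-CHRONO and 337 in U2OS. The part of list length in these values was not tested.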

How the results depend on the processing

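With 6 times kept, the 7 genes stayed at 3 or more additional U2OS times with a 5 kb window, the gene with 5 kb, equal list sizes and peak centres; equal sizes shorten the U2OS-CHRONO lists alone. With a score of at least 100, 3 did (ANKS3, DNAAF8 and FLYWCH2), and METTL13 and IRS4 had no peak left in either line. Without 1 time, 3 to 7 did, with 3 without 4 h and 3 without 20 h. No alternative gave any of the 7 more U2OS-CHRONO than U2OS times. Only the 5 kb window and the gene with 5 kb can add peaks. In the other settings this outcome was fixed in advance for the genes with no U2OS-CHRONO gene-end peak. Over all genes 742 had 3 or more additional U2OS-CHRONO times and 30 as many U2OS times. These became 1464 and 76 for the gene with 5 kb, 296 and 14 with a score of at least 100, and 232 and 77 at equal list sizes; a 5 kb window gave 51 of the second kind. Without 1 time the ranges were 389 to 662 and 10 to 29, fewer by construction. The Myc peak at YPEL1 left 0 with a score of at least 100.

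Around the 6 loci, none of 66 alternatives passed (lowest adjusted p of the exact permutation tests, 0.188). Of these, 36 leave out 1 time and could not pass, since 5 pairs allow no exact permutation p under 0.0625. The sign changed in 11 of the 66, 4 of them with plain numbers of peaks. Without the replicate block, that is unpaired, the difference at FLYWCH2 was -1.32 with an exact permutation p of 0.0433 (adjusted p = 0.260). Overlap by rank moved by less than its SD when centres within 500 bp were used. Unknown depth limits every absence: a site with no listed peak may carry signal under the lowest listed score of 50.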
